A study of Mus musculus with 6 samples.

Results

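Mutant retinas were examined for the genes that build and load MHC class I molecules. The 10 genes were chosen by their known role in presentation, by a rule that uses no measured value, although earlier results of these data were known when the rule was set. They are the heavy chains H2-K1, H2-D1, H2-T23 and H2-Q4, their shared light chain B2m, the peptide transporter subunits Tap1 and Tap2, the loading factor Tapbp, and the immunoproteasome subunits Psmb8 and Psmb9. All 10 were found among the 55376 genes of the count table, and all 10 passed the filter on low counts that left 18547 genes for testing. RNA-seq had been performed on whole retinas of 3 WT mice and of 3 Wfs1-KO mice carrying the Wfs1-/- genotype, and Wfs1 encodes wolframin, a transmembrane protein of the endoplasmic reticulum. Mice of both genotypes were 240 days old, and the labels give their strain as C57x129, whereas the methods of the study name C57BL/6J. The labels name no tissue-restricted deletion, so that blood and vessels of a mutant mouse carry the genotype as well as its retina.

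An MHC class I molecule carries a short peptide from inside the cell to its surface, where CD8 T cells and natural killer cells inspect it. Proteasomes cut proteins into peptides, the TAP transporter moves these into the endoplasmic reticulum, and tapasin holds an empty class I molecule at the transporter until a peptide fits. In the healthy retina, neurons are known for low class I levels, whereas microglia and vessel cells carry more, and interferon raises the whole set of genes together.

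In mutant retinas all 10 genes had a fitted level above WT, but no gene passed the test, and 1 retina, Wfs1-KO replicate 2, held the highest value of every gene. With all 6 retinas the median log2 fold change (mutant minus WT) of the 10 genes was 0.96, against 0.02 over all tested genes. Without Wfs1-KO replicate 2 it was 0.28, against -0.00038 over all tested genes. H2-Q4 and Tap2 stood above every WT retina in every mutant retina, including both of the others, and 5.01% of all tested genes did so. For Tap2, mutant replicate 3 was only just above WT replicate 3. In the fit over all genes with edgeR's quasi-likelihood test, every member had a Benjamini-Hochberg adjusted p of 0.979, so that 0 of the 10 passed 0.05, where 0.0108% of all tested genes passed. At an unadjusted p under 0.05, 4 members were higher (H2-K1, H2-Q4, Tap2 and Psmb8) and none was lower, where 2.24% of all tested genes were higher by the same rule. The count of 4 was between 0 and 9 when 1 retina was left out. Over all tested genes, those higher by this rule then numbered between 222 of 18971 and 867 of 19396.

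Levels are given as CPM, a gene's reads relative to the size of its library after TMM scaling, unless a value per length is named. Total counts were between 17916885 and 65714683 in WT and between 43443859 and 101334381 in Wfs1-KO retinas, and 3 counts correspond to 0.0291 to 0.170 CPM. Wfs1 itself had 64.9, 61.4 and 69.9 CPM in WT replicates 1, 2 and 3 and 9.63, 0.90 and 11.5 CPM in the mutant replicates, below WT in each. The labelled tissue was checked on 13 markers of inner retina neurons, whose summed level was between 2641 and 2910 CPM in all 6 libraries, and on 11 photoreceptor markers. These 11 leave out the most abundant marker of the list, which is not reported here, so that their sum does not rank the retinas for the whole list. The sum was 30750, 27580 and 28710 CPM in WT and 24640, 25360 and 25290 CPM in mutant replicates 1, 2 and 3, each mutant retina below each WT retina. Of these markers 9 had a negative fold change with all retinas (median log2 fold change -0.18) and 11 without mutant replicate 2 (median -0.23), none past the threshold, and their part in the class I values was not tested. Wfs1-KO replicate 2 was unlike the other 5 libraries: its mean correlation to them across genes was 0.918, where theirs were 0.962 to 0.971. It also carried more RNA of cells that may lie in or beside a retina. The summed level of 7 blood markers was 481 CPM in it and 12.3 to 41.3 CPM in the others, that of 15 microglia markers 356 CPM against 82.8 to 111 CPM, and that of 13 monocyte, macrophage and neutrophil markers 111 CPM against 5.13 to 13.6 CPM. These genes moved together with the class I genes in that library, and their part in the result was not tested. In a whole tissue, more cells of a type and more RNA per cell cannot be told apart. For this reason, values without that library are given beside those with it.

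Of the 10 genes, 9 lie within the major histocompatibility complex on chromosome 17 of mm10, and B2m lies on chromosome 2. Promoter sequences were compared first, because class I heavy chains and B2m are known to share upstream elements that bind NF-kB, interferon regulatory factors and the CCAAT-binding NF-Y. RefSeq windows (GRCm38.p6) were found for 9 of the 10 genes, all but Tap2, and the 250 bases before each start were searched on both strands. The kB motif GGGNNTTNCCC was found in 4 of the 9 genes, namely H2-K1, H2-D1, H2-Q4 and B2m, and in 1.21% of 32536 windows of all genes. The interferon response motif AANNGAAA was found in these and in H2-T23, 5 of 9, and in 21.3% of all windows. The inverted CCAAT motif ATTGG was found in 8 of 9, all but Psmb8, and in 33.8% of all windows. The matches of Tap1 and Psmb9 are the same bases, read from opposite strands. The stretches of H2-K1 (chr17:34000349-34000468, minus strand), H2-Q4 (chr17:35379433-35379576, plus strand) and B2m (chr2:122147540-122147648, plus strand) are shown 5′ to 3′, with the matches to the motifs in capitals, since they let the shared order of the elements be read.
H2-K1: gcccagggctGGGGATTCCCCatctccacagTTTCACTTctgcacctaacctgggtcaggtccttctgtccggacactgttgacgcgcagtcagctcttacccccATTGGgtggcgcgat
H2-Q4: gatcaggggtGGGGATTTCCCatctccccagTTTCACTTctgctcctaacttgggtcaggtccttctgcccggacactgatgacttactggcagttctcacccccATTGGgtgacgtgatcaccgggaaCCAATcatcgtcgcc
B2m: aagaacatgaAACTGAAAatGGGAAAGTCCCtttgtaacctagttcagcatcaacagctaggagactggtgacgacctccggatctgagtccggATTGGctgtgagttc

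The matches did not overlap each other. In H2-K1 and H2-Q4 the kB match came first, then the interferon response match on the opposite strand, then the CCAAT match, whereas in B2m the interferon response match preceded the kB match. Only the core of both first elements is given for H2-D1 (chr17:35262923-35262951, plus strand), because the longer gene model of GENCODE M21 places it within a 5′ UTR exon.
H2-D1: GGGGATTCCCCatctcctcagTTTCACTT

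The aligned stretches of H2-D1 and H2-Q4 were identical in 84.7% of 144 columns, those of H2-K1 and H2-D1 in 75.5% of 143 and those of H2-K1 and H2-Q4 in 70.8% of 144. Tap1 and Psmb9 start 226 bases apart on opposite strands, and their 300-base windows share 275 bases, so that both genes read from 1 stretch of DNA. In that stretch a single inverted CCAAT match was found, and no kB or interferon response match with the letters searched.

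WT retinas held the 10 genes at very different levels. Per length of exon (CPM per kilobase), H2-D1 was at 34.5 ± 6.6, B2m at 33.4 ± 5.82, H2-K1 at 26.6 ± 4.15 and Tapbp at 19.2 ± 2.14 (SD, n = 3 each). H2-D1 lay above 90.0% of the tested genes and Tapbp above 81.0%. H2-T23 was at 4.79 ± 1.40, Tap2 at 2.43 ± 0.68, H2-Q4 at 2.34 ± 0.21, Tap1 at 1.54 ± 0.24, Psmb8 at 1.14 ± 0.37 and Psmb9 at 0.77 ± 0.57 (SD, n = 3 each, per kilobase), with Psmb9 above 25.2% of the tested genes. Neighbours in this order overlapped in their WT ranges for H2-D1 and B2m, B2m and H2-K1, Tap2 and H2-Q4, Tap1 and Psmb8, and Psmb8 and Psmb9, and were separate elsewhere. In Wfs1-KO replicate 2 the order differed, with B2m first at 130 CPM per kilobase, then H2-K1, H2-D1 and Tapbp, and H2-Q4 stood above H2-T23 and Tap2.

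**Figure D1:**
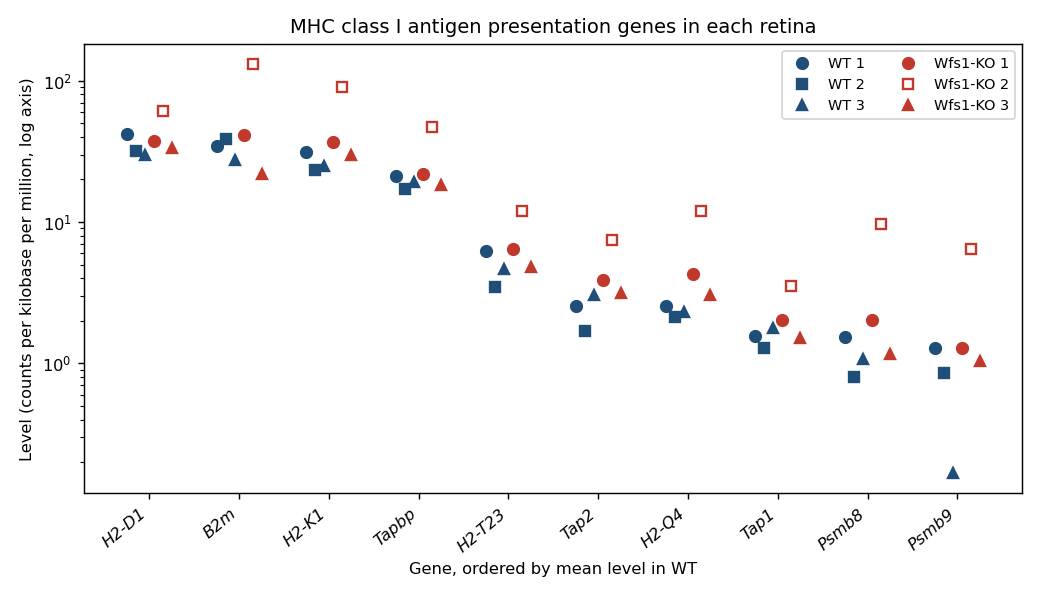
Level of each of the 10 genes in every retina, in CPM per kilobase of exon on a log axis, with WT and Wfs1-KO retinas as separate points. H2-D1, B2m and H2-K1 are the most abundant in WT at 34.5, 33.4 and 26.6, and the highest point of every gene is Wfs1-KO replicate 2.

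H2-K1 and H2-D1 encode the classical heavy chains, which bind peptides for CD8 T cells. H2-K1 (ENSMUSG00000061232.16, chr17:33996017-34000347, minus strand) had 51.7, 38.7 and 41.4 CPM in WT replicates 1, 2 and 3 and 61.3, 150 and 49.7 CPM in the mutant replicates. Mutant replicates 1 and 2 lay above every WT retina and replicate 3 within the WT range. The fitted difference, as log2 fold change of mutant over WT, was 0.98 (standard error 0.41), which became 0.33 (standard error 0.17) with Wfs1-KO replicate 2 left out. H2-D1 (ENSMUSG00000073411.11, chr17:35262730-35267499, plus strand) had 88.4, 67.0 and 62.3 CPM in WT and 78.1, 128 and 69.6 CPM in mutant retinas. Mutant replicates 1 and 3 both fell inside the WT range, and only replicate 2 was above it. For H2-D1 the log2 fold change was 0.34 (standard error 0.28) and 0.02 (standard error 0.17) without that retina.

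H2-T23 and H2-Q4 encode nonclassical heavy chains. H2-T23, also called Qa-1, presents leader peptides of other class I chains to receptors of natural killer cells. H2-T23 (ENSMUSG00000067212.8, chr17:36029976-36032855, minus strand) had 9.20, 5.09 and 6.87 CPM in WT and 9.54, 17.5 and 7.11 CPM in mutant retinas, and the fitted log2 difference was 0.69 (standard error 0.39). Without Wfs1-KO replicate 2 it was 0.23 (standard error 0.26). Mutant replicate 3 lay within the WT range. H2-Q4, a Qa-family chain, had the largest fold change of the 4 heavy chains. H2-Q4 (ENSMUSG00000035929.11, chr17:35379617-35384674, plus strand) had 4.59, 3.85 and 4.14 CPM in WT and 7.66, 21.4 and 5.47 CPM in mutant retinas. Every mutant retina lay above every WT retina, and the WT values were close to each other. The log2 fold change of H2-Q4 was 1.45 (standard error 0.50). Leaving out Wfs1-KO replicate 2 gave 0.64 (standard error 0.22, adjusted p = 0.753 from edgeR). Of its exon bases, 377 overlap Gm11131 on the opposite strand, whose log2 fold change was 1.84, and 1.59 without that retina. The library kit does not mark strand, so that reads of the 2 genes over these bases cannot be told apart.

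Heavy chain genes also resemble each other, which limits how well short reads can be assigned. Some 50-base stretches of the longest coding transcript occurred unchanged in a transcript of another gene. Their share was 8.79% in H2-K1, 14.3% in H2-D1, 24.3% in H2-Q4 and 28.8% in H2-T23. How far this affects the counts was not measured. The same share was 0 in B2m, Psmb8 and Psmb9, and between 0.737% and 2.0% in Tap1, Tap2 and Tapbp.

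The make-up of the heavy chain pool was compared between genotypes as a description. Per length, H2-K1 made up 38.1%, 38.4% and 40.6% of the summed level of the 4 heavy chains in WT replicates 1, 2 and 3, and 43.6%, 51.7% and 42.3% in the mutant replicates. H2-D1 made up 51.2%, 52.4% and 48.1% in WT and 43.8%, 34.8% and 46.6% in mutant retinas. H2-Q4 made up 3.12%, 3.52% and 3.75% in WT and 5.03%, 6.79% and 4.30% in mutant retinas. For these 3 of the 4 chains the genotypes did not overlap, whereas the shares of H2-T23, between 5.67% and 7.63% in all retinas, did. Leaving out mutant replicate 2 cannot create an overlap, so that it is no check here. No background was drawn for shares of 4 genes. Ratios of 2 tested genes within a library are a different measure. Of these, 9.61% did not overlap between genotypes with 6 retinas, and 23.1% without mutant replicate 2. The shares add to a fixed total, so that a higher share of H2-K1 lowers that of H2-D1.

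B2m encodes beta-2-microglobulin, the light chain without which class I molecules do not reach the surface. B2m (ENSMUSG00000060802.8, chr2:122147686-122153083, plus strand) had 29.5, 33.4 and 23.4 CPM in WT and 35.6, 112 and 18.9 CPM in mutant retinas. The mutant retinas thus held both the highest values and the lowest value of the 6. The log2 fold change of B2m, 0.95 (standard error 0.59), turned to -0.08 (standard error 0.25) without Wfs1-KO replicate 2. B2m was the only member whose direction turned under any of the 15 alternatives tried. The ratio of B2m to the 4 heavy chains together, per length, was 0.417, 0.637 and 0.442 in WT and 0.487, 0.741 and 0.309 in mutant retinas, with overlapping groups.

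Tap1 and Tap2 encode the paired subunits of the transporter that brings peptides into the endoplasmic reticulum. Tap2 (ENSMUSG00000024339.12, chr17:34203527-34216321, plus strand) had 8.78, 5.86 and 10.5 CPM in WT and 13.4, 25.9 and 10.9 CPM in mutant retinas. Every mutant retina lay above every WT retina, although mutant replicate 3 was only just above WT replicate 3. Tap2 had a fitted log2 difference of 1.00 (standard error 0.38), and of 0.55 (standard error 0.24, adjusted p = 0.932 from edgeR) without Wfs1-KO replicate 2. Tap1 (ENSMUSG00000037321.17, chr17:34187553-34197225, plus strand) had 4.62, 3.78 and 5.22 CPM in WT and 6.01, 10.4 and 4.47 CPM in mutant retinas, and its mutant replicate 3 was within the WT range. The log2 difference of Tap1 was 0.62 (standard error 0.35) and 0.22 (standard error 0.23) with mutant replicate 2 left out. The subunits join one to one, and their ratio per length, Tap2 over Tap1, was 163%, 133% and 173% in WT and 191%, 214% and 209% in mutant retinas. The groups did not overlap, as for 9.61% of all ratios of 2 tested genes, and this ratio was chosen after values had been seen. Its log2 difference was 0.40, and 0.37 without Wfs1-KO replicate 2. Of the exon bases of Tap2, 543 overlap Gm15821 and Gm20496, and of those of Tap1, 212 overlap Psmb9.

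Tapbp encodes tapasin, which bridges the transporter and the empty class I molecule. Tapbp (ENSMUSG00000024308.15, chr17:33919332-33929292, plus strand) had 61.6, 49.3 and 55.9 CPM in WT and 63.1, 136 and 52.7 CPM in mutant retinas. Mutant replicate 1 lay just above the WT range and replicate 3 within it. Its log2 fold change was 0.59 (standard error 0.36) and 0.05 (standard error 0.15) with mutant replicate 2 left out.

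Psmb8 and Psmb9 encode the beta5i and beta1i subunits, which replace Psmb5 and Psmb6 when interferon turns a proteasome into an immunoproteasome. Psmb8 (ENSMUSG00000024338.15, chr17:34197790-34201454, plus strand) had 2.50, 1.3 and 1.76 CPM in WT and 3.31, 15.8 and 1.88 CPM in mutant retinas. Mutant replicate 2 was 4.78 times as high as the next retina, and mutant replicate 3 fell inside the WT range. Psmb8 showed a log2 difference of 1.91 (standard error 0.78), which became 0.48 (standard error 0.35) with mutant replicate 2 left out. Psmb9 (ENSMUSG00000096727.3, chr17:34181987-34187764, minus strand) had 1.75, 1.16 and 0.227 CPM in WT and 1.74, 8.69 and 1.41 CPM in mutant retinas, and the value of WT replicate 3 rested on 4 counts. For Psmb9 the log2 difference was 1.85 (standard error 0.88) and 0.48 (standard error 0.53) with mutant replicate 2 left out. With all retinas these were the largest fold changes of the 10 genes, and both genes had the lowest levels per length in WT. Without mutant replicate 2, H2-Q4 and Tap2, at 0.64 and 0.55, lay above them.

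**Figure D2:**
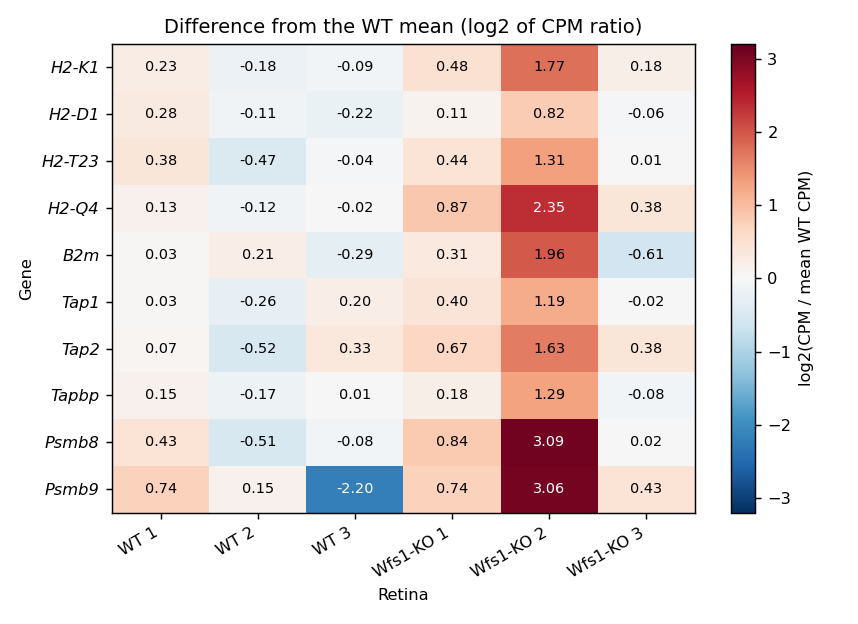
Level of each gene in every retina as the log2 ratio to its WT mean, with genes in rows and the 6 retinas in columns. The column of Wfs1-KO replicate 2 is the highest of every row, up to 3.09 for Psmb8, and the columns of mutant replicates 1 and 3 lie closer to WT.

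The 10 genes were then read across the retinas. Wfs1-KO replicate 2 was the highest of the 6 for 10 of 10 genes, whereas it was the highest for 38.4% of all tested genes. Its level over the WT mean was between 1.77-fold for H2-D1 and 8.53-fold for Psmb8, with a median of 3.25-fold, where the median over all tested genes was 0.998-fold. The mean of mutant replicates 1 and 3 over the WT mean was between 0.947-fold for B2m and 1.57-fold for H2-Q4, with a median of 1.22-fold. Mutant replicate 1 exceeded every WT retina for 8 of 10 genes, all but H2-D1 and Psmb9, where 20.3% of all tested genes did so. Mutant replicate 3 did so for 2 genes, H2-Q4 and Tap2, and was below every WT retina for B2m. Mutant replicate 1 was above mutant replicate 3 for 10 of 10 genes, and for 49.2% of all tested genes. Thus every mutant retina was above every WT retina for 2 of 10 members, where 5.01% of all tested genes met this rule.

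Without Wfs1-KO replicate 2 the fit over all genes tested 19178 genes, of which 0.125% passed an adjusted p of 0.05, and 0 of the 10 members were among them. At an unadjusted p under 0.05, H2-Q4 and Tap2 were higher, 2 of 10, where 2.8% of all tested genes were higher by that rule. With all 6 retinas 10 of 10 fold changes were positive (52.8% of all tested genes), and without that retina 9 of 10 (49.9%). DESeq2, the tool named in the methods of the study, gave a median of 0.95 and called 0 members, with the lowest adjusted p, 0.438, for H2-Q4. The members share retinas and are not replicates of each other, so that their common direction within a retina counts once.

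**Figure D3:**
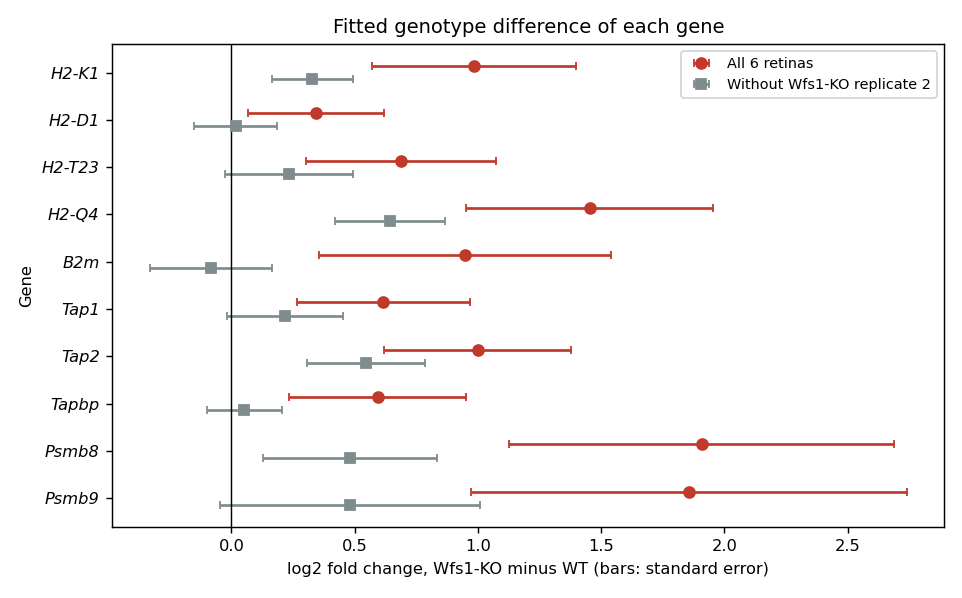
Fitted log2 fold change of each gene, Wfs1-KO minus WT, with its standard error, for all 6 retinas and without Wfs1-KO replicate 2. With all retinas the values run from 0.34 for H2-D1 to 1.91 for Psmb8, and without that retina from -0.08 for B2m to 0.64 for H2-Q4.

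Ratios between immunoproteasome subunits and the constitutive subunits they replace were compared within each library, where depth cancels. Psmb8 was at 2.10%, 1.63% and 1.86% of Psmb5 in WT, and at 3.70%, 8.07% and 2.12% in mutant retinas, per length. The groups did not overlap, but mutant replicate 3 exceeded WT replicate 1 only slightly. The log2 difference was 1.10, and 0.59 without Wfs1-KO replicate 2 (two-sided exact permutation test over all 6 retinas, p = 0.1, and 0.15 after Benjamini-Hochberg adjustment over 3 ratios, where 0.1 is the smallest p that this design allows). Psmb9 was at 0.788%, 0.754% and 0.142% of Psmb6 in WT and at 1.04%, 1.88% and 0.887% in mutant retinas, again without overlap, a log2 difference of 1.45 (two-sided exact permutation test, p = 0.1, adjusted 0.15). Without WT replicate 3, with its 4 counts of Psmb9, this difference was 0.64, and without Wfs1-KO replicate 2 it was 1.13. Psmb10, the third inducible subunit, beta2i, is encoded outside the complex and was at 14.7%, 11.4% and 12.4% of Psmb7 in WT and at 15.3%, 59.6% and 13.3% in mutant retinas. Its groups overlapped, with a log2 difference of 0.85 (two-sided exact permutation test, p = 0.2, adjusted 0.2), and of 0.16 without Wfs1-KO replicate 2. In every retina the constitutive subunit was the more abundant of its pair.

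**Figure D4:**
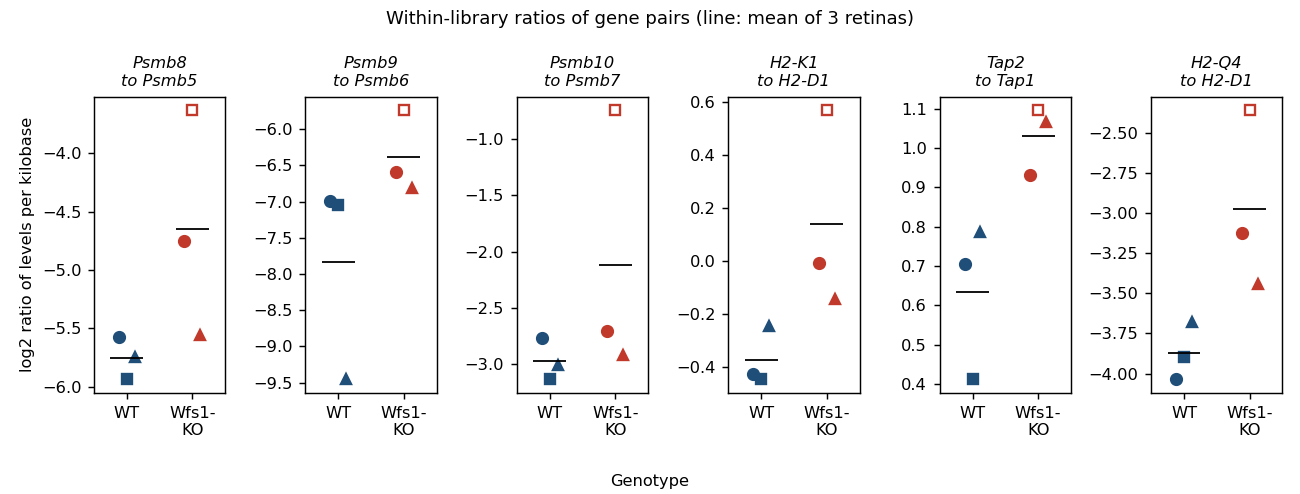
Within-library log2 ratios of levels per kilobase in each retina (vertical axes, scaled for each panel), for inducible over constitutive proteasome subunits and for pairs of class I genes, in WT and Wfs1-KO retinas, with lines at the mean of 3 retinas. The open square, Wfs1-KO replicate 2, has the highest ratio in each panel, and of the panels shown only Psmb10 to Psmb7 overlaps between genotypes. The pairs of class I genes were chosen after values had been seen. Of all 45 pairs of the 10 genes 12 did not overlap, and of all pairs of tested genes 9.61%.

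The same comparison was extended, after values had been seen, to all 45 pairs of the 10 genes. In 12 pairs, or 26.7%, the ratio did not overlap between genotypes, where the background of 9.61% came from 162729820 pairs of tested genes with counts in every library. Leaving out Wfs1-KO replicate 2 cannot make such a pair overlap, and it added no further pair to the 12. In those 5 retinas 23.1% of all pairs met the rule, so that the share among the members was then close to the background. Pairs with a gene in common are not independent. H2-Q4 was part of 6 of the 12, and was relatively higher in mutant retinas in each, against H2-K1, H2-D1, H2-T23, B2m, Tap1 and Tapbp. H2-Q4 was at 6.09%, 6.73% and 7.79% of H2-D1 in WT and at 11.5%, 19.5% and 9.22% in mutant retinas, per length. H2-K1 was at 74.4%, 73.4% and 84.4% of H2-D1 in WT and at 99.6%, 148% and 90.7% in mutant retinas. H2-D1 was relatively lower in all 3 of its non-overlapping pairs, against H2-K1, H2-Q4 and Psmb9. The remaining pairs were H2-K1 and Tap2 each over Tapbp, Tap2 over Tap1, and Psmb8 over B2m, all relatively higher in mutant retinas.

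Other genes of the pathway were read from the same fit. Among further class I and class I-like heavy chains, 14 of 26 genes in the table passed the filter, 12 were positive with a median log2 fold change of 0.47, and none had an unadjusted p under 0.05 in edgeR's test. With mutant replicate 2 left out, 10 of 14 were positive with a median of 0.20. By the same rule Hfe was then higher and H2-M5, named after its value was seen, was lower. Of 19178 tested genes, 537 were higher and 458 lower by that rule. H2-M5 had 0.331, 0.336 and 0.397 CPM in WT and 0.155, 0.687 and 0.0227 CPM in mutant replicates 1, 2 and 3, the last from 1 count. The log2 fold changes were 0.76 (standard error 0.48) for H2-Q7, a Qa-2 chain, 0.43 for H2-T24 and 0.13 for H2-T22. Without mutant replicate 2 they were 0.19, 0.22 and -0.04 in the same order. Fcgrt, the neonatal Fc receptor that also pairs with B2m, had 0.90, which turned to -0.06 without Wfs1-KO replicate 2. Hfe, a class I-like protein of iron control, had 20.5, 20.4 and 22.9 CPM in WT and 31.3, 22.7 and 28.0 CPM in mutant retinas, with mutant replicate 2 the lowest of its group, and its log2 fold change was 0.36 with all retinas and 0.48 without that retina (adjusted p = 0.631 from edgeR). Mr1, which presents vitamin metabolites, had -0.04, and 0.22 without that retina.

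Peptide loading and trimming genes had no common direction with all retinas, with 7 of 15 positive and a median of -0.0045. Without Wfs1-KO replicate 2, 4 of 15 were positive, where 49.9% of all tested genes were, and the median was -0.10. Tapbpl is a relative of tapasin that edits peptides away from the transporter. With all retinas it was the only gene of the 15 with an unadjusted p under 0.05 on the higher side, and none was lower. By this rule 2.24% of all tested genes were higher. Tapbpl had 9.0, 6.07 and 6.87 CPM in WT and 9.91, 15.9 and 9.70 CPM in mutant retinas. Each mutant retina lay above each WT retina, as for 5.01% of all tested genes. The log2 difference of Tapbpl was 0.69 (standard error 0.28), or 0.41 with mutant replicate 2 left out. The general chaperones of the endoplasmic reticulum that also fold class I chains had log2 fold changes of -0.03 for Calr, -0.14 for Canx, -0.01 for Hspa5 and 0.19 for Pdia3. With mutant replicate 2 left out these were -0.38 for Calr, which encodes calreticulin, -0.14 for Canx, -0.19 for Hspa5 and -0.25 for Pdia3. Calr was then lower at an unadjusted p under 0.05 in edgeR's test (adjusted p = 0.792), the only gene of the 15 past it. By that rule 458 of 19178 tested genes were lower. Sec61b, of the translocation channel, had 0.72 and Npepps, a cytosolic peptidase, 0.28, and both turned, to -0.10 and -0.16, without that retina.

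Among the 10 immunoproteasome partners and constitutive subunits, 7 were positive with a median of 0.39, and 2 were positive with a median of -0.12 without Wfs1-KO replicate 2, with none past an unadjusted p of 0.05 in either direction. Psmb10 was at a log2 fold change of 1.09, and at 0.03 without that retina, and the proteasome activators Psme1, Psme2 and Psme3 had 0.79, 0.45 and -0.26 with it and -0.03, -0.17 and -0.14 without it. The constitutive Psmb5, Psmb6 and Psmb7 had 0.35, 0.56 and -0.09, and -0.14, -0.13 and -0.10 without that retina.

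Regulators of class I genes and interferon-gamma signaling genes were near the median of all genes, with 11 of 24 positive and a median of -0.03, or -0.02 with 11 of 24 positive without mutant replicate 2, and none past an unadjusted p of 0.05. Nlrc5, the transactivator of class I promoters, had 0.452, 0.399 and 0.624 CPM in WT and 0.961, 1.02 and 0.409 CPM in mutant retinas, with overlapping groups and a log2 fold change of 0.72 (standard error 0.49), or 0.55 with mutant replicate 2 left out. Irf1, which acts downstream of interferon-gamma, had 0.60 with all retinas and -0.05 without Wfs1-KO replicate 2. Jak1, the kinase below the interferon receptors, had -0.07, and 0.14 without that retina. Ifng and Ifnb1 had 0 counts in all 6 libraries, which allows up to 0.0291 CPM in the deepest library and 0.170 CPM in the shallowest.

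MHC class II genes serve antigen-presenting cells such as macrophages, microglia and B cells. All 8 tested genes were positive with a median of 1.94, and 3 had an unadjusted p under 0.05, namely Cd74, H2-Aa and H2-Eb1, where 2.24% of all tested genes were higher by this rule. Cd74, the invariant chain, had 0.331, 0.441 and 0.681 CPM in WT and 1.70, 32.1 and 0.772 CPM in mutant retinas. Each mutant retina lay above each WT retina, as for 5.01% of all tested genes. The log2 fold change of Cd74 was 4.64 (standard error 1.45). Without Wfs1-KO replicate 2 the median of the list was 0.20 and Cd74 was at 1.46 (standard error 0.48). H2-Aa, a class II alpha chain, had a log2 fold change of 3.94, and H2-Eb1, a beta chain, of 3.70, which became 1.37 and 0.45 with mutant replicate 2 left out. In DESeq2 H2-Aa passed the threshold with all retinas (adjusted p = 0.0296), where 49 of 32639 genes passed, and Cd74 and H2-Eb1 had no value. Cd74 and H2-Eb1 had 1356 and 955 counts in mutant replicate 2, and at most 175 and 103 in any other retina. H2-Aa had 20, 8 and 6 counts in WT and 104, 463 and 14 counts in mutant replicates 1, 2 and 3. Receptors of class I and genes of cytotoxic lymphocytes were scarcely detected, with 3 of 20 passing the filter and a summed level of 1.16 to 2.21 CPM in WT and of 1.53, 5.49 and 1.18 CPM in mutant replicates 1, 2 and 3.

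Markers of the cells that carry class I were set beside the members. Of the 15 microglia markers, 13 were highest in Wfs1-KO replicate 2, and their median log2 fold change was 1.56 with all retinas and 0.06 without that retina. P2ry12, a receptor of resident microglia, had 5.24, 5.30 and 5.49 CPM in the mutant replicates, and thus did not set replicate 2 apart, whereas C1qa of complement had 10.9, 80.5 and 6.93 CPM. The 14 endothelium markers summed to 298 to 381 CPM in WT and to 389, 418 and 384 CPM in mutant replicates 1, 2 and 3, and the 8 pericyte and mural markers to 50.9 to 61.1 CPM and 59.8, 74.1 and 49.8 CPM. The 11 pigment epithelium markers summed to 670 to 741 CPM in WT and to 572, 1100 and 561 CPM in mutant retinas, and the 17 lens markers to 2.27 to 4.07 CPM and 5.46, 14.7 and 3.50 CPM, with 4 lens markers at 0 counts in all libraries. The 11 Mueller glia and astrocyte markers summed to 5792 to 6492 CPM in WT and to 5354, 8020 and 5623 CPM in mutant retinas. In mutant replicate 1, where 8 members lay above every WT retina, the microglia sum was 111 CPM against 84.0 to 95.1 CPM in WT, and the blood sum, at 22.8 CPM, lay within the WT range. In that retina H2-Q4 was at 7.66 CPM and Tap2 at 13.4 CPM, and the part of the microglia markers in these values was not tested.

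Because 9 of the members are neighbours, the genes around them were also read. Between the outer ends of Tapbp and H2-T23, chr17:33919332-36032855, the table holds 208 genes in 2.11 Mb. For the 9 members there the median log2 fold change was 0.98 and all 9 were positive, and without Wfs1-KO replicate 2 the median was 0.33 with 9 of 9 positive. The 94 tested genes of the interval on none of the lists had a median of 0.12 and 61.7% were positive, with 3 higher and 2 lower at an unadjusted p under 0.05. Without that retina their median was -0.04 and 38 of 96 were positive. These genes include relatives and neighbours of the members, such as H2-K2 and Gm11131. In both sets of retinas the median of the members lay above that of the genes between them. This is a description, since neighbouring genes are not independent.

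**Figure D5:**
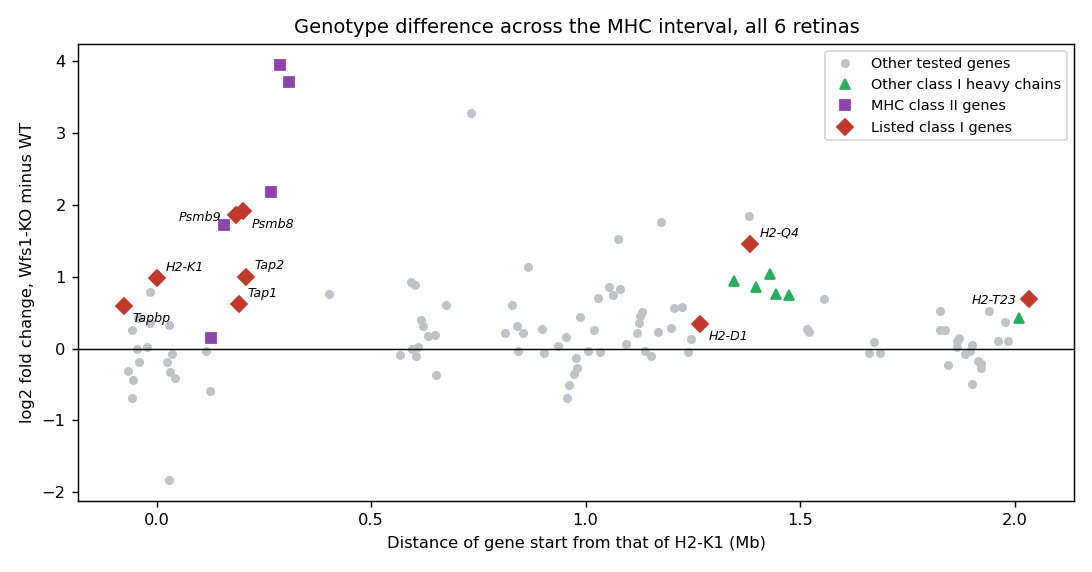
Log2 fold change with all 6 retinas (vertical axis) against the distance of each gene from H2-K1 in Mb (horizontal axis) for tested genes of the interval, with class I members, other class I genes, class II genes and genes on no list as separate points. The 9 members are all above 0, with a median of 0.98, among genes on no list with a median of 0.12.

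Genes outside the lists whose pattern over the 6 retinas was most like the mean of the members were Rasl10a and Muc1 (Pearson r = 0.997 each), Ckap4 and Serpinf1 (0.996 each), Isoc2b (0.995), Wnt4, Dusp8 and Borcs5 (0.994 each), and 2810049E08Rik and Nkain4 (0.992 each). Of 14943 genes with at least 50 counts on average, 11.2% had r of at least 0.9, and the points share the 1 library in which the members were highest, so that these values describe it above all. The mean of the members, as centred log2 CPM, was 1.45 in Wfs1-KO replicate 2 and between -0.57 and 0.12 in the other 5 retinas.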

How the data were processed

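Total RNA of whole retinas from 3 WT and 3 Wfs1-KO mice was sequenced with a TruSeq kit that does not mark strand. The authors trimmed reads, mapped them to mm10 with STAR and counted exon reads of each gene with featureCounts; the counts were deposited raw, with no normalization. The submitters' processing notes name Trimmomatic 0.39, STAR 2.5.3a and featureCounts 1.6.4, and the methods name other versions. They also differ in the RNA extraction, a phenol reagent in the labels and a column kit in the methods. The deposited exon length of each gene, as another kind of value, was used for levels per length. Columns were matched to samples by genotype letter and replicate number, and 2 columns that matched no sample were not used.

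The test of genotype on the counts used edgeR 4.0.16, run in R 4.3.3 (TMM scaling, filterByExpr, quasi-likelihood test, Benjamini-Hochberg adjustment over all tested genes, threshold 0.05). Standard errors were taken as the fold change divided by the root of F. The code was tested on simulated counts. Alternatives were DESeq2 1.42.0, limma-voom 3.58.1 with and without sample quality weights, other scalings and filters, a block and leaving out each retina. Retinas of a group came from different mice, and p-values measure the spread between them only. Same-numbered retinas were not paired by the labels, and their deviations correlated at -0.23, -0.11 and 0.08. Ratios were compared by exact permutation of retinas. The members and lists were chosen with earlier results of these data known. Named genes were all members, Wfs1, up to 6 genes per pathway list with the highest level per length, a fixed set of partners, list genes past the threshold and the 10 most similar genes. Some genes of the lists are not reported here. Gm11131, H2-K2, H2-M5, P2ry12, C1qa and the further pairs were chosen after their values were seen. Promoters came from RefSeq, and counting intervals cover counting error only.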

Additional observations from a re-analysis of the deposited data

How the results depend on the processing

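The number of members past the threshold was 0 in edgeR with all retinas and under all 15 alternatives, with member adjusted p between 0.438 and 1.000. At an unadjusted p under 0.05, the 4 members of the edgeR test with all retinas compared with 5 in DESeq2, 1 in limma-voom, 3 with sample quality weights and 0 with the block. Without WT replicates 1, 2 and 3 there were 0, 0 and 1, and without Wfs1-KO replicates 1, 2 and 3 there were 5, 2 and 9. Over all tested genes, 416 of 18547 were higher by this rule in edgeR with all retinas and 877 of 32639 in DESeq2. There were 270, 798 and 233 of 18547 in limma-voom, with sample quality weights and with the block. Without WT replicates 1, 2 and 3 there were 244 of 19062, 222 of 18971 and 285 of 19289. Without Wfs1-KO replicates 1, 2 and 3 there were 711 of 19017, 537 of 19178 and 867 of 19396. The median log2 fold change of the members, 0.96, was 0.95 with DESeq2, 0.70 with limma-voom, 0.41 with sample quality weights, 0.95 and 1.00 with other scalings, 0.91 with no filter and 0.97 with at least 10 counts in every sample, a filter that removed Psmb9. Leaving out 1 retina at a time gave 0.28 to 1.24, the lowest without Wfs1-KO replicate 2. Of 149 values of single members under the alternatives 147 were positive, and the exceptions were B2m without Wfs1-KO replicate 2, at -0.084, and with DESeq2 without that retina, at -0.085; leaving out 1 retina at a time gave B2m -0.084 to 1.35. The number of all genes past the threshold, 2, was 49 with DESeq2, 35 with sample quality weights, 9 with no filter, 95 with DESeq2 without Wfs1-KO replicate 2, and 0 to 24 when 1 retina was left out, the highest again without Wfs1-KO replicate 2. The cause of these differences was not tested. With the replicate number as a block, 1 gene passed and the member median was 0.71, and the retinas share only a number. None of the 24 alternative values of the 3 proteasome ratios changed direction. With the replicate block the exact p of each ratio was 0.25, the smallest that 3 pairs allow. Levels under 1 CPM, such as Psmb9 in WT replicate 3, are limited by depth.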
